A study of Arabidopsis thaliana with 11 samples.

Results

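The chromosome 3 block is a stretch of neighbouring Arabidopsis thaliana genes from AT3G16170 (AAE13) to AT3G17185 (TAS3) whose transcripts were mostly higher in root tips of cle40-2 than of wild-type Col-0. Its members were all table rows between these locus identifiers in number order, except AT3G16240, AT3G16390, AT3G16400, AT3G16410 and AT3G16920. This gave 107 members among the 28495 genes of the tables. The stretch was picked out by its values in the cle40-2 comparison, so everything from that comparison describes how the members were chosen and tests nothing.

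RNA of root tips was sequenced in 11 samples, 3 of wild-type Col-0, 3 of cle40-2, 3 of clv2-gabi and 2 of crn-3. All 4 groups have the Col-0 genetic background per the labels, and no transgene or treatment is named for any of them. Plants were grown upright on agar with Murashige and Skoog salts and sucrose at 21 °C in constant light. No source used here states the plant age. Nothing states that replicates were grown apart either, so the deposited p-values reflect only how much these samples varied, possibly for technical reasons. CLE40 encodes a small secreted signalling peptide, CLV2 a receptor-like protein and CRN (CORYNE) its membrane-bound kinase-like partner. The study was about root meristem growth.

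The values are group means of normalised read counts, fold changes (mutant over Col-0) and adjusted p-values from the authors' 3 deposited tables, one for each mutant. The tables hold no value per sample, so no standard deviation or interval can be given and the depth per sample is unknown. A gene was called at an adjusted p under 0.05, and an adjusted p printed as 0 is one that rounds to 0. All 3 comparisons used the same Col-0 samples. In the tables, the 6 root tip genes PLT1, PLT2, SHR, SMB, BRN1 and COBL9 were above 0 in every group. Their summed means were 4348 in Col-0 and 4426 in cle40-2, 4327 in Col-0 and 4475 in clv2-gabi, and 4014 in Col-0 and 4333 in crn-3. COBL9 was called lower in clv2-gabi (434 to 178, 0.41-fold) and in crn-3 (403 to 224, 0.56-fold), and no other of the 6 was called in any mutant. The transcript of CLE40 (AT5G12990), on chromosome 5 and so not in the block, had means of 1 and 3 in the deposited cle40-2 table, too low to check the label. In the libraries labelled clv2-gabi, the CLV2 mean rose from 198 to 4248 in the deposited table, 21.44-fold, and in those labelled crn-3 the CRN mean was 91 in Col-0 and 111, not called, so neither transcript showed a loss.

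Most neighbouring genes in the Arabidopsis genome belong to different pathways, while tandem arrays are made of related genes. The block holds an array of jacalin-related lectin genes, whose products bind sugars and include a protein that binds the root beta-glucosidase PYK10. Around it lie genes for hormone signalling, chromosome structure, protein synthesis and organelles, which form no common pathway. Fewer cells of a type and less RNA per cell cannot be told apart in such bulk samples.

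On the TAIR10.1 assembly the block covers chromosome 3 from 5475855 to 5862437, a span of 387 kb. Of the 107 members, 106 matched this annotation, and 104 of those are annotated as protein-coding. The genes lie on both strands, 56 on the plus strand and 50 on the minus strand. The block begins 507 bases after the end of AT3G16160 and ends 4954 bases before the start of AT3G17190.

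The bases directly before 5 annotated gene starts are shown, because the results turn on these genes: AAE13 and TAS3 at both edges, the 2 members with the largest fold changes in cle40-2 among those at means of at least 50, and the 1 member that was lower. Sequences are from the TAIR10.1 genome, written in the direction of the gene, and hold only bases outside annotated genes. For EBP only 46 such bases exist, because the annotated gene AT3G16760 lies directly before them. Capitals mark exact matches to 1 of 4 motifs, read on both strands.
AAE13 (chr3:5475605-5475854, plus strand): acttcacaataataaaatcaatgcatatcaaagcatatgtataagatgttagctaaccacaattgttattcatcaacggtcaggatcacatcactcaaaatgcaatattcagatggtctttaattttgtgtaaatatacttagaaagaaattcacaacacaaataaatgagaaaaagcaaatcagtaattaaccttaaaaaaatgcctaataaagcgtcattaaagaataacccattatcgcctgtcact
AT3G16370 (chr3:5556460-5556709, plus strand): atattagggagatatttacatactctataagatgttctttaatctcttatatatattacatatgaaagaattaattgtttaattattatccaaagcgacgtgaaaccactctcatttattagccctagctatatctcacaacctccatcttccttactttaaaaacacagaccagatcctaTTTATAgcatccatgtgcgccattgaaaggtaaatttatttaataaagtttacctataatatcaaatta
EBP (chr3:5705495-5705540, plus strand): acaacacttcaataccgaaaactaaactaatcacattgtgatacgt
AT3G16800 (chr3:5720691-5720940, plus strand): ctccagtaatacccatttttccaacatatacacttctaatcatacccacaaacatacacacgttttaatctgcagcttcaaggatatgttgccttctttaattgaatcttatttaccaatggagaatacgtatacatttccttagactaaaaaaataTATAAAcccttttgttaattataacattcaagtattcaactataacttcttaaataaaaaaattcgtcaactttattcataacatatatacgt
TAS3 (chr3:5861241-5861490, plus strand): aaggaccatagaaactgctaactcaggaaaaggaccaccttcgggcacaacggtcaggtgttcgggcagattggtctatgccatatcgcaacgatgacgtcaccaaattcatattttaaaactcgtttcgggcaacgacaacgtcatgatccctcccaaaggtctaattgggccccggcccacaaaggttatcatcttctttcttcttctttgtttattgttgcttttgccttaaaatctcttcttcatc

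The G-box was searched as CACGTG, the ethylene response element as GCCGCC, a W-box form as TTGACC and the core promoter element as TATAAA. No match overlapped another among the sequences shown, and the only matches were 1 TATAAA each before AT3G16370 and AT3G16800, the former on the opposite strand. Over 88 members with 250 free bases before their start, TATAAA occurred in 60.2%, TTGACC in 15.9%, CACGTG in 2.27% and GCCGCC in 0%. The shares over 19970 genes of the tables with such a window were 51.4%, 12.2%, 6.35% and 1.29%. A match describes letters in a window and is not a binding site.

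Most members with measurable transcripts had higher means in cle40-2. Of the 107 members, 86 had an adjusted p in the deposited cle40-2 table, 65 were called higher and 1 lower, and 20 were not called. With a log2 change of at least 1 also required, 34 were higher. Over all 23602 genes tested there, 3.21% were called higher and 1.94% lower, 5.15% in all, against 75.6% and 1.16% of the tested members. Because this contrast chose the members, nothing is read from that gap. The members made up 8.58% of the 758 genes called higher in cle40-2. The 21 members without an adjusted p are listed at 0 in both groups, among them 4 F-box genes, 3 plant self-incompatibility S1 family genes, 2 pollen Ole e 1 family genes, 3 invertase or pectin methylesterase inhibitor genes and a lysine tRNA.

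Most well measured members had a fold from 1.5 to 2.5 in cle40-2. When only genes reaching 50 in the group with the larger mean were kept, 67 members remained, of which 62 were called higher, 1 lower and 4 were not called. This filter also takes in genes through their cle40-2 mean. In the deposited table the median fold of the 67 was 1.93, with quartiles of 1.74 and 2.13 and a range from 0.18 to 4.88. A fold from 1.5 to 2.5 was found in 56 of the 67 in cle40-2, a size held by 2.68% of 16278 genes at such means. Folds of that size were held by 0.51% of genes in clv2-gabi and by 0.295% in crn-3, and by none of the 67 members in either. The 56 members were 12.8% of the 437 genes in the tables with a fold from 1.5 to 2.5. All 23 members with a Col-0 mean of at least 1000 had folds between 1.3 and 2.32 in cle40-2, with a median of 2, whatever their function.

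**Figure D1:**
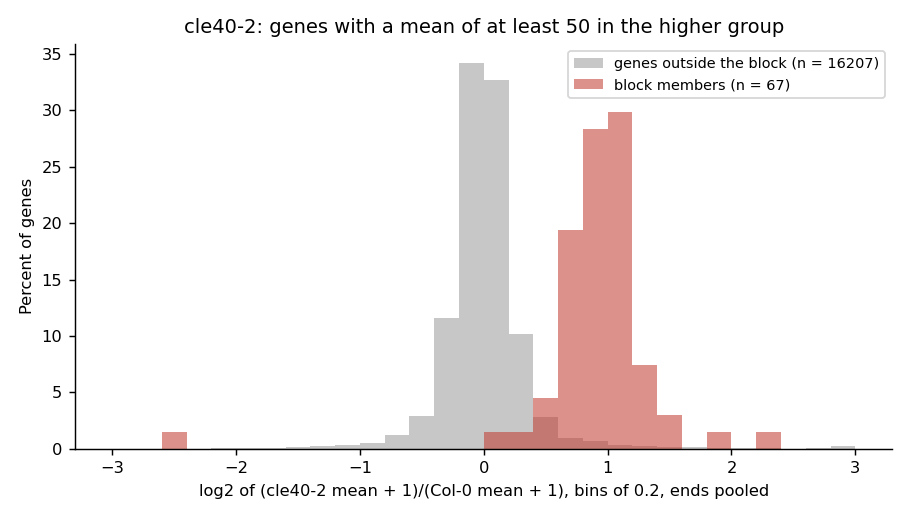
Percent of genes (vertical axis) by log2 ratio of the cle40-2 to the Col-0 mean, each plus 1 (horizontal axis, bins of 0.2, values beyond the axis pooled at its ends), for 67 block members and 16207 genes outside the block, all reaching 50 in the group with the larger mean. The members centre near 1, which is 2-fold, and the other genes near 0, with 1 member far to the left.

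The level of a gene bore little relation to its fold. Among the 67 members the rank correlation of the log2 fold in cle40-2 with the log2 Col-0 mean was 0.08, with the exon length 0.18 and with the place along the block 0.21. These are descriptions across genes that come from the same libraries, and genes are not independent replicates. The median fold in the deposited table was 1.98 on the plus strand (38 members) and 1.92 on the minus strand (29 members). It was 1.94 for 10 genes with a single exon, 1.93 for 35 with 2 to 5 exons and 1.94 for 22 with more. Strand and exon number therefore left the typical value almost where it was.

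**Figure D2:**
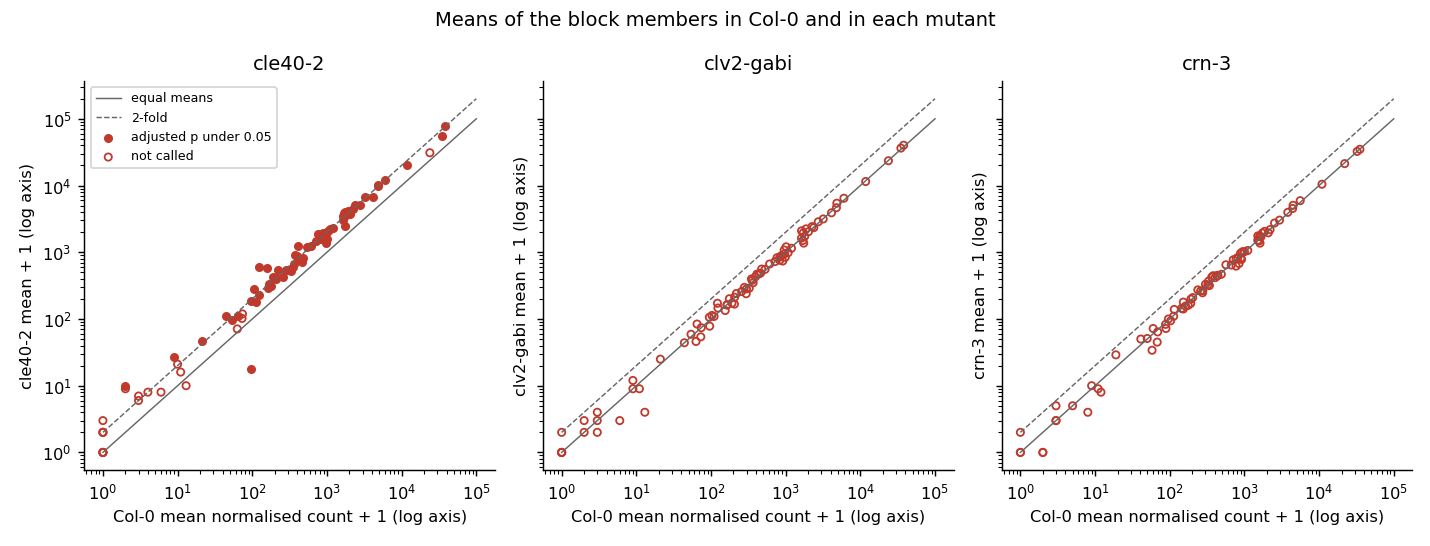
Mean normalised count plus 1 of each member with an adjusted p in Col-0 (horizontal, log axis) and in the mutant (vertical, log axis), 1 panel for each deposited table, with lines at equal means and at 2-fold. In cle40-2 most members above about 50 lie near the 2-fold line, PBP1 (1.3-fold) and JAL34 (1.57-fold) lie under it and AT3G16370 (95 in Col-0, 17 in cle40-2) far below it, low members scatter widely, and in clv2-gabi and crn-3 they follow the line of equal means.

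The values at the edges are given from the deposited cle40-2 table. Just outside the left edge, AT3G16160, a gene for a tesmin-like CXC domain protein, had means of 4 in Col-0 and 9 in cle40-2, 2.25-fold, and was not called. Farther out the folds were 0.2 for ASPGB1, 23.9 for PSAH-1 and 7.42 for AT3G16120 (means of 1 and 5, not called). The nearest locus close to Col-0 on that side was PDIL1-6 (AT3G16110), with 1927 and 1882, 0.98-fold in the deposited table. Just inside, AAE13, which encodes malonyl-CoA synthetase, had 439 and 778 in the deposited table, 1.77-fold. The next inside, the thioesterase family gene AT3G16175, had means of 1 and 8 in the deposited table and was not called. It was followed by AT3G16180 (nitrate transporter NRT1.12) at 1753 and 4073, 2.32-fold, and AT3G16190 (isochorismatase family) at 349 and 594, 1.7-fold. At the right edge TAS3, the non-coding RNA that gives rise to small RNAs against auxin response factor transcripts, had 219 and 536 in the deposited table, 2.44-fold. The first locus beyond it, AT3G17190, is listed at 0 in both groups, and the next, the ubiquitin ligase gene UPL6 (AT3G17205), had 1447 and 1490, 1.03-fold.

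Of the 107 loci before the block 3 (3.12% of those tested) were higher and 3 lower in cle40-2, and of the 107 after it 1 (1.03%) was higher and 3 were lower, in the deposited table. The shares called lower were 3.12% before and 3.09% after, where all genes gave 1.94%. Among the nearest 25 loci on each side, 8.7% of those tested were higher before the block and 0% after it, where all genes gave 3.21%. Among the 48 flanking loci with a Col-0 mean of at least 1000, the folds ran from 0.2 to 1.26 with a median of 0.955. ASPGB1 (AT3G16150), an asparaginase gene 2 rows before the block, which fell from 1707 to 335, 0.2 of Col-0 in the deposited table. The higher loci before the block were PIFI (0 to 10), AT3G16040 (0 to 18) and the photosystem I gene PSAH-1 (2 to 51) in the deposited table. These 3 were near 0 in Col-0, unlike most members. The 1 higher locus after the block was AGD15 (AT3G17660), at 63 and 127 in the deposited table, 53 rows beyond TAS3.

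**Figure D3:**
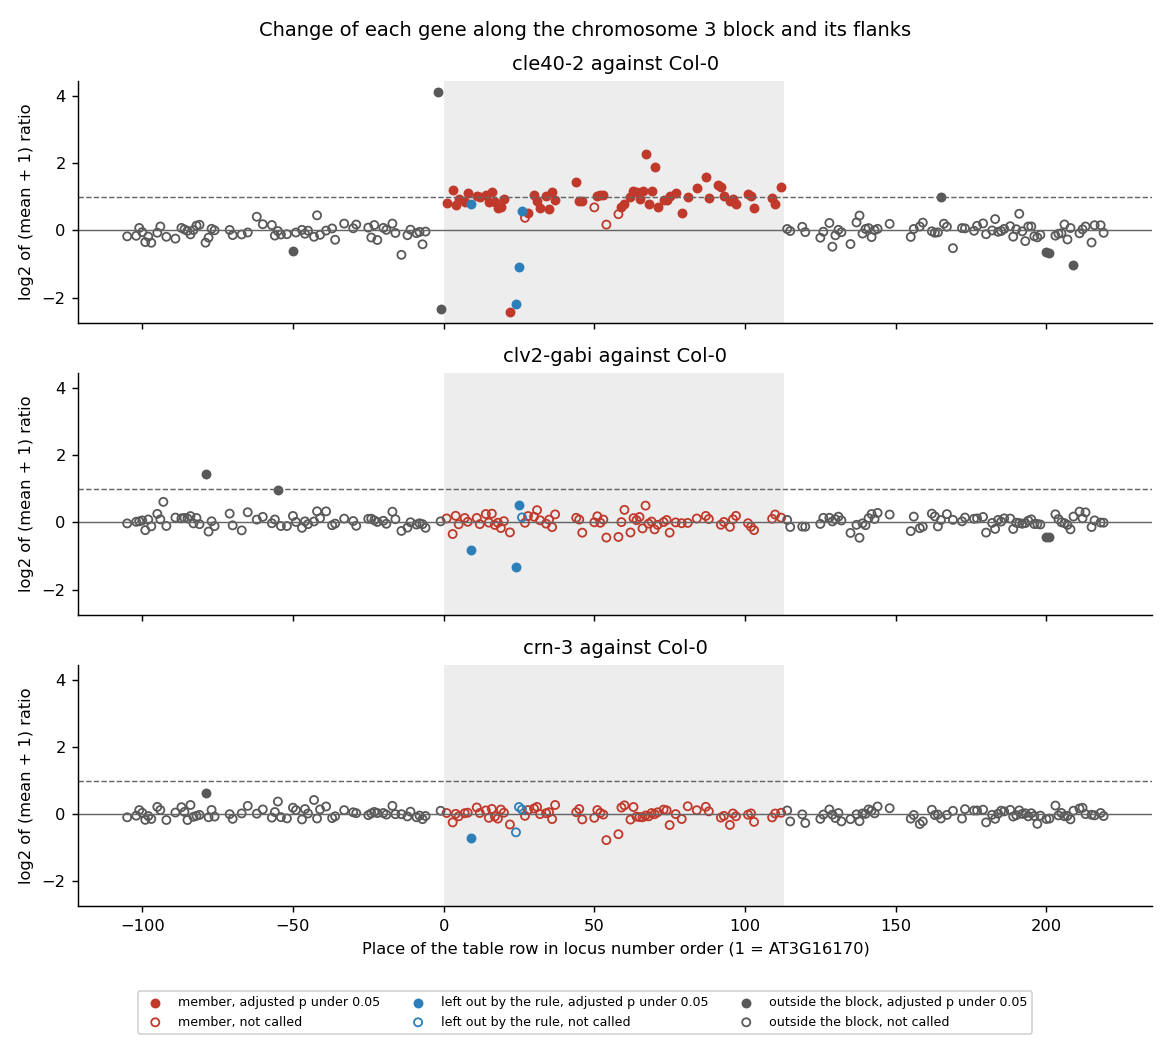
The log2 ratio of the mutant to the Col-0 mean, each plus 1 (vertical), by place of the table row in locus order (horizontal, 1 is AT3G16170), for genes reaching 50 in the group with the larger mean, 1 panel for each mutant. The shaded block stands near 1 (dashed line) in cle40-2 and near 0 in clv2-gabi and crn-3, while the 107 loci on each side stay near 0 in all 3 panels, apart from a few called genes.

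Along the block the called genes formed long runs. At the same minimum of 50, 33 genes in a row from AT3G16700 to TAS3 were called higher in the deposited cle40-2 table, with a median fold of 2.01. Another 16 in a row from AAE13 to AT3G16350 were called higher, with a median of 1.85, and 11 from AT3G16430 to AT3G16570, also at 1.85. The run of 16 includes AT3G16240 (DELTA-TIP), which the rule leaves out of the members. From left to right in 4 stretches of 16 or 17 members, the median fold was 1.8, 1.85, 2.02 and 2. The interruptions lay around the nitrile specifier genes and between AT3G16610 and AT3G16690.

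In clv2-gabi and crn-3 the folds of the same genes centred near 1, with genes on either side of it. The stretch was picked out by the cle40-2 comparison, and these 2 comparisons share the Col-0 samples with it. Why the rule leaves out 5 loci of the span is not stated. These 5 include 3 that were called in clv2-gabi or crn-3, so the absence of calls holds only for the members as chosen. None of 83 tested members was called in clv2-gabi, where 1.89% of all genes were called (0.3% higher and 1.59% lower), and none of 81 in crn-3, where 0.439% were (0.189% higher and 0.25% lower), by the authors' adjusted p in the deposited tables. Such low shares leave room for few calls among so few genes, so nothing is read from their absence. The tables hold no unadjusted p, and the smallest adjusted p of a member was 0.247 in clv2-gabi (AT3G16900) and 1 in crn-3. With the 5 loci added, 1 was higher (NSP1, 1.44-fold) and 2 lower (DELTA-TIP, 0.57, and NSP3, 0.4) in clv2-gabi, and 1 lower (DELTA-TIP, 0.61) in crn-3, in the deposited tables. For the 67 members above, the median fold was 1.01 in clv2-gabi, from 0.72 to 1.42, and 1.01 in crn-3, from 0.58 to 1.23. The standard deviation of the log2 fold between members was 0.527 in cle40-2, 0.187 in clv2-gabi and 0.188 in crn-3. It measures differences between genes and not the error of a gene. In 66 of the 67 the fold was higher in cle40-2 than in both other mutants, AT3G16370 being the exception. Because the cle40-2 values chose the members, nothing is read from that count. The difference between mutants was not tested, because the tables compare each mutant with Col-0 only.

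Among the 67 members reaching means of 50, those with the largest folds in cle40-2 lay well above the median of 1.93. Larger folds occurred at low means, where AT3G16600, a SNF2 domain gene, was called higher at means of 1 and 9 in the deposited table. EBP (AT3G16770, also RAP2.3), an ethylene response factor of the group that acts in the response to low oxygen, had means of 121 in Col-0 and 591 in cle40-2, 4.88-fold in the deposited table. In the other deposited tables it had 121 and 171 in clv2-gabi (1.42-fold, not called) and 112 and 109 in crn-3. AT3G16800, a protein phosphatase 2C gene, had 155 and 576, 3.73-fold in the deposited cle40-2 table, against 0.87-fold in clv2-gabi and 1-fold in crn-3. AT3G16940, annotated as a calmodulin-binding transcription activator, had 413 and 1249, 3.03-fold in the deposited table. EBP and AT3G16800 were thus the only 2 of the 67 above 3.03-fold, and 2 further members lay between 2.5 and 3. These were the phosphatase 2C gene AT3G16560 at 2.72-fold and NRPB9A, a subunit of nuclear RNA polymerases, at 2.6-fold in the deposited table. NRPB9A overlaps AT3G16990 on the other strand by 705 bases, and no source used here says whether counting used strand, so reads within the overlap cannot be told apart. In all, 14 of the 67 overlap another annotated gene on either strand, with a median fold of 2.08, against 1.9 for the 53 that do not.

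One member went the other way. AT3G16370, which encodes a GDSL-type lipase, had means of 95 in Col-0 and 17 in cle40-2, 0.18 of Col-0 in the deposited table. In clv2-gabi it had 95 and 77, and in crn-3 88 and 71, neither called in the deposited tables. It overlaps PAB6 (AT3G16380), a poly(A)-binding protein gene listed at 0 in both groups, by 538 bases on the other strand. The loci that the rule leaves out lie partly beside it. In the deposited cle40-2 table NSP3 was at 0.22 of Col-0 and NSP1 at 0.47, and NSP4, DELTA-TIP and CTL2 were at 1.49-fold, 1.74-fold and 5.78-fold. The CTL2 means were low, 4 in Col-0 and 26 in cle40-2. Only 72.5% of the 50-base exon windows of NSP1 and 76.2% of those of NSP4 occur once in the genome, against at least 98.5% for each of the 67 members. The share was 98.8% for NSP3 and 100% for AT3G16370, DELTA-TIP and CTL2.

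The 6 members listed as jacalin-related lectins form a tandem array, and 4 of them were called higher in cle40-2. The nitrile specifier genes just before it, NSP3 (0.22 of Col-0), NSP1 (0.47) and NSP4 (1.49-fold), are left out by the rule and not counted. For this array and the functional groups below, 75.6% of tested members and 3.21% of all tested genes were called higher in cle40-2. The members were chosen by that contrast and no group was tested, so nothing is read from the count of any group. Such lectins bind sugars, and PBP1 (AT3G16420, also JAL30) binds the root beta-glucosidase PYK10. In the deposited cle40-2 table MLP-300B (AT3G16440) had 4869 in Col-0 and 10092, 2.07-fold, JAL33 1639 and 2991, 1.82-fold, and JAL34 35059 and 55207, 1.57-fold. JAL31 had 1732 and 2491, 1.44-fold, and PBP1 23884 and 30980, 1.3-fold and not called. JR1 (AT3G16470), a jasmonate-responsive member, had means of 5 and 7 there. The order of folds in the array was therefore not that of the levels. At average means of at least 10 the folds of the array spanned 0.99 to 1.28 for clv2-gabi, and for crn-3 0.97 to 1.16, with no call in the deposited tables.

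Genes of cytokinin and auxin signalling were present in the block, and 4 of 5 were called higher in cle40-2. RR1 (AT3G16857, the type-B response regulator ARR1, which activates cytokinin-responsive genes) had means of 1635 and 3517 in the deposited table, 2.15-fold. PAP1 (AT3G16500, the auxin repressor IAA26) had 191 and 422, 2.21-fold, and the co-repressor gene TPR2 had 2024 and 3751, 1.85-fold. TAS3 is given above. The remaining gene, AHP4, a phosphotransfer protein of the cytokinin pathway, was close to 0, with means of 0 and 1 in the deposited table. In clv2-gabi and crn-3 RR1 was at 1-fold and TPR2 at 1-fold and 1.1-fold in the deposited tables.

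Of 9 transcription factors and DNA-binding proteins 7 were called higher, and RR1, PAP1, EBP and AT3G16940 are among them. In the deposited table the homeodomain-like gene AT3G16350 was at 1.9-fold (207 and 393), AT3G17100 (AIF3) at 2.04-fold (1085 and 2216) and GATA17 at 1.42-fold (970 and 1379). The integrase-type DNA-binding protein gene AT3G16280 had means of 10 and 15, and the B3 gene REM22 of 2 and 6, and neither was called. All 3 protein phosphatase 2C genes were called higher, AT3G17090 at 2.12-fold (2391 and 5065) beside AT3G16800 and AT3G16560 in the deposited table. The phosphatases and EBP hold 3 of the 5 folds above 2.5 among the 67 members.

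The 4 members among cell division and chromosome genes were all called higher, where 75.6% of all tested members were. TCTP (AT3G16640), a conserved growth-related protein, had means of 38203 in Col-0 and 79050 in cle40-2, 2.07-fold in the deposited table. KINESIN-13A, a microtubule motor, had 3198 and 6650, 2.08-fold, and HEB2 (AT3G16730), a condensin subunit gene, 394 and 892, 2.26-fold. CDC27a, a subunit of the anaphase-promoting complex, had 300 and 537, 1.79-fold in the deposited table. In clv2-gabi the 4 lay between 0.95-fold and 1.09-fold and in crn-3 between 0.96-fold and 1.16-fold. Per kilobase of exon, TCTP had the highest Col-0 mean of the block at 37750, followed by PBP1 at 15880, JAL34 at 11510 and the ribosomal protein L19 gene AT3G16780 at 10621. The means behind these levels are from the deposited cle40-2 table, and their order within Col-0 cannot be set against a spread over samples.

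Genes for protein synthesis and RNA processing were called higher in 6 of 7 cases. AT3G16780 had 11853 and 20626, 1.74-fold in the deposited table, PUM24, of the RNA-binding Pumilio family, 4127 and 6722, 1.63-fold, and the P-loop hydrolase gene AT3G16840 2745 and 5181, 1.89-fold. TRZ4, a tRNA-processing enzyme, had 611 and 1245, 2.04-fold there. Of 12 genes for organelle proteins 11 had an adjusted p and 8 were called higher. Their folds at average means of at least 10 ran from 1.6 to 2.05. They include MPPalpha, a subunit of the mitochondrial processing peptidase (4807 and 9755, 2.03-fold), LPD1, a plastid lipoamide dehydrogenase (6056 and 11919, 1.97-fold), and TOC120, a plastid import receptor (959 and 1932, 2.01-fold), in the deposited table. PnsB3, a subunit of the plastid NDH complex, had means of 0 and 1 and was not called. The pentatricopeptide repeat gene AT3G16610 had 73 and 118, 1.6-fold, with a deposited adjusted p of 0.1.

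Of 6 transport and membrane genes 5 were called higher, with NRT1.12 the highest of them by fold. AT3G16310, of the MPPN family, had 1885 and 4198, 2.23-fold in the deposited table, and AT3G16270, of the ENTH/VHS family of vesicle adaptors, 1806 and 3608, 2-fold. The drug-resistance type transporter gene ABCG29 had 325 and 531, 1.63-fold. SWEET16, a vacuolar sugar transporter gene, had 72 and 101, 1.4-fold, and was not called. In clv2-gabi SWEET16 was at 0.74 and in crn-3 at 0.66 of Col-0 without a call in the deposited tables.

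Of 11 cell wall and secreted protein members 7 had an adjusted p, and of these 4 were called higher and 1, AT3G16370, lower. RALF23, a secreted peptide that raises the pH outside the cell, had means of 297 and 548, 1.85-fold in the deposited table. AT3G16850, of the pectin lyase-like family, had 918 and 1875, 2.04-fold. The low genes COBL8 (20 and 46, 2.33-fold) and AT3G17130 (8 and 26, 3.28-fold), a pectin methylesterase inhibitor type gene, were called there too. Of 7 genes for metabolic enzymes 5 were called higher. AAE7, which activates acetate in peroxisomes, had 769 and 1854, 2.41-fold, and PLDP1, a phospholipase D of root growth, 880 and 1968, 2.24-fold, in the deposited table. AT3G16990, annotated as heme oxygenase-like, had 368 and 910, 2.47-fold, with the overlap given above. UGT88A1 was at 0 and 1. Of the 6 listed F-box genes 3 had an adjusted p, and AT3G16555, also annotated as F-box and without an adjusted p, is not in that list. Only AT3G16740 was called, with 532 and 1180, 2.22-fold in the deposited table. The other 5 listed F-box genes had means of at most 5 in both groups.

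**Figure D4:**
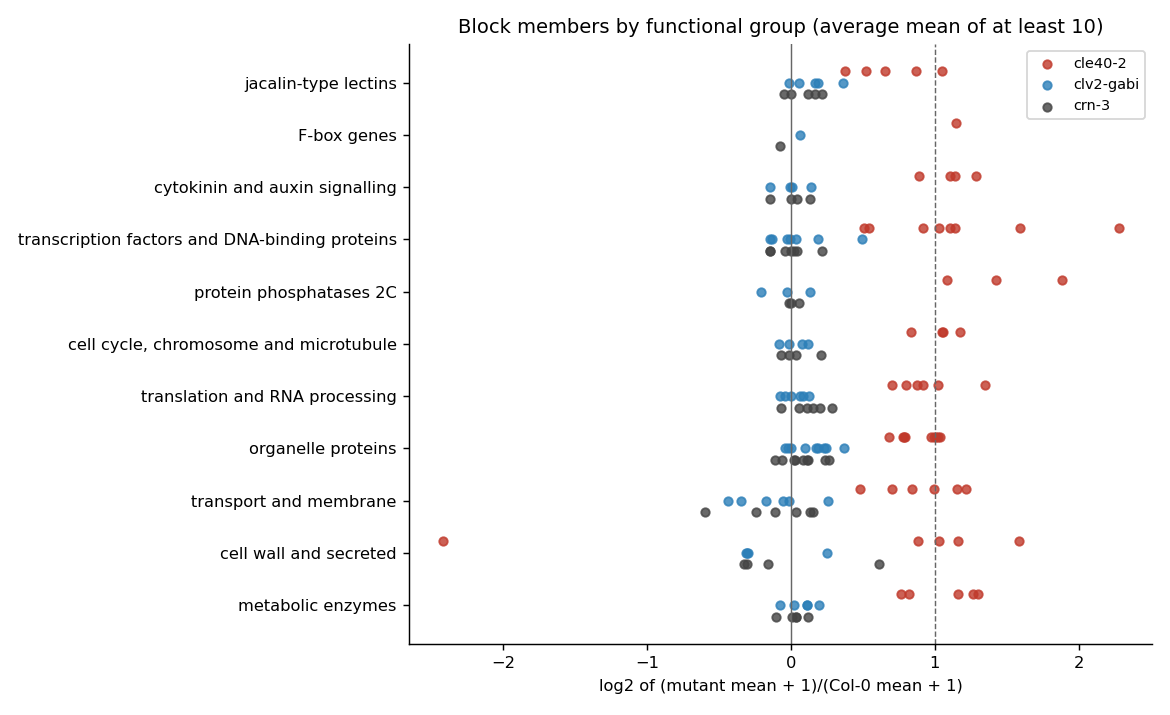
The log2 ratio of the mutant to the Col-0 mean, each plus 1 (horizontal), of members with an average mean of at least 10 in 11 functional groups (vertical), with a point for each gene and mutant. In every group the cle40-2 points lie to the right of 0, most of them near 1, except AT3G16370 at -2.42 among the cell wall genes, while clv2-gabi and crn-3 points lie around 0.

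Among other named members, AT3G16230, a LigT-like gene, had 838 and 1797, 2.14-fold, and its neighbour and relative AT3G16220 had 53 and 96, 1.8-fold, in the deposited table. AT3G16760, of the tetratricopeptide repeat family and next to EBP, had 1705 and 3841, 2.25-fold. The WD40 gene AT3G16650 was the member closest to Col-0 among the 67, with 62 and 70, 1.14-fold, and was not called. With PBP1, AT3G16610 and SWEET16 it makes up the 4 well measured members that were not called.

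Together the members held 0.599% of all normalised counts in Col-0 and 1.11% in cle40-2, by the sums of the deposited means, 173265 and 313306. Without TCTP, JAL34 and PBP1 the sums were 76119 and 148069, a ratio of 1.95. For clv2-gabi the share was 0.599% in Col-0 and 0.632% in the mutant, and for crn-3 0.599% and 0.605%. These 3 members alone made up 48.6% of the difference between the summed means of cle40-2 and Col-0.

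Markers of other tissue also differed in the cle40-2 libraries. All 5 green tissue genes (LHB1B1, LHCB2.1, RBCS1A, CAB3 and LHCA2) were called higher in the deposited table, with summed means of 26 in Col-0 and 1247 in cle40-2, and RBCS1A and LHCA2 listed at 0 in Col-0. Of 4 seed genes CRU3 and CRA1 were called higher, with summed means of 1 and 452, and CRU3, CRA1 and OLEO2 listed at 0 in Col-0. In clv2-gabi the sums were 44 for the green and 3 for the seed genes, with no call. In crn-3 they were 23 and 15, with CRU3 called. The part of these tissues in the values of the block was not tested.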

How the data were processed

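The authors sequenced RNA of root tips in 11 samples. Processing used CASAVA 1.8.2 and DESeq with the build TAIR10, per the submitters' processing notes, and no source used here names the aligner, the counter, its use of strand or the gene models. The values deposited by the authors as group means are scores here: means of normalised read counts rounded to whole numbers, which cannot enter a count model. The deposited fold change is the ratio of mutant to Col-0 mean, to 2 decimals, and the deposited adjusted p-value has 3 decimals. Depth per sample is unknown.

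Genes were called at an adjusted p under 0.05. Log2 changes used a pseudocount of 1, and medians of log2 changes took members with an average mean of at least 10. The log2 scale understates changes of low genes. Positions and names came from the TAIR10.1 annotation, matched by 28008 of 28495 identifiers. Members, functional groups and the rule for named genes were chosen with earlier results of these data known. The rule named the 20 largest rises and up to 10 falls in cle40-2 at a mean of at least 50, any member called elsewhere, any member of a functional group, the first and last members and the nearest called loci outside. Further genes, AT3G16650, AT3G16220 and AT3G16900 among them, were named after their values were seen. No set test was run. Python 3.11.15 with pandas 2.3.3 and SciPy 1.17.1 was used, and counting of runs was tested on simulated data. One further upstream sequence is not reported here.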

Additional observations from a re-analysis of the deposited data

How the results depend on the processing

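Of 44 values under other settings, 37 stayed within 1.5 times the count, or within 0.1 on the log2 scale of the median, and 7 did not. With a log2 fold of at least 1 in size, 34 members were higher in cle40-2 in place of 65. With the 5 loci left out by the rule added, 3 loci were lower in cle40-2, 1 higher and 2 lower in clv2-gabi, and 1 lower in crn-3, where the members alone gave 1, 0, 0 and 0. With 25 loci on each side in place of 107, the share called higher in cle40-2 was 8.7% before the block (AT3G16040 and PSAH-1) and 0% after it, against 3.12% and 1.03%. The median log2 change of members was 0.95 in cle40-2 and ran from 0.88 to 0.95 under the other settings. No paired analysis was possible because the tables hold group means only, and for the same reason no replicate could be left out. Whether 1 library carries a mean cannot be seen.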

Other observations

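Runs of neighbouring genes called in the same direction were counted over all chromosomes, among genes that reached 50 in the group with the larger mean. In the deposited cle40-2 table, the longest run called higher outside the block had 4 genes (AT2G07727 to AT2G07751, chromosome 2, median 2.14-fold). Whether the exon windows of these genes are unique in the genome was not checked. On chromosomes 1, 4 and 5, and on the rest of chromosome 3, the longest had 2. The longest run called lower had 3 genes, found on chromosome 1, on chromosome 4 (AT4G22212 to AT4G22217) and on chromosome 3 as AT3G16370, NSP3 and NSP1 within the span of the block. In the clv2-gabi and crn-3 tables the longest runs called higher had 2 genes, CLV2 with AT1G65370 and AT5G02020 with AT5G02030 in the former and AT1G53480 with AT1G53490 in the latter.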
